A study of Danio rerio with 16 samples.

Results

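The 7 genes described here are foxd3, sox10, sox9b, crestin, inka1a, gch2 and pmelb of the zebrafish (Danio rerio), which act in or mark the neural crest and the pigment cells that come from it. They were found as every probe set whose only gene symbol in the array's annotation is one of these names, which gave 10 probe sets of 15502 tested, and 7 genes of 8793 named. The genes were chosen with the differences between genotypes on these same arrays already known. Their mutant and wild-type values are therefore given as a description, without p-values. Where the fit over all genes passed its threshold for any of them, that is only counted, beside the share of all genes. How far the counts moved under other processing is given, and nothing is read from them. For the 7 genes, tests with p-values are given for the change with time within each genotype. The genes are treated as chosen by the genotype differences in log2 intensity, but the exact values used are not recorded, so the tests on time too may not be fully independent of the choice.

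The study compared whole dechorionated embryos homozygous for the nz171 allele of rad21a with wild-type embryos, at 24 and at 48 hours post fertilisation (hpf). The gene encodes a cohesin subunit, and cohesin joins sister chromatids and folds chromosomes into loops. Each of the 4 groups (wild type 24 hpf, mutant 24 hpf, wild type 48 hpf, mutant 48 hpf) had 4 biological replicates, each a pool of 50 embryos on its own Affymetrix zebrafish array, which made 16 arrays. Whole embryos mix all tissues, so fewer cells of a type and less RNA per cell cannot be told apart.

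The neural crest is a population of cells that leaves the dorsal neural tube, migrates through the embryo and forms pigment cells, peripheral glia and neurons, and much of the skeleton of the head. In zebrafish it gives rise to black melanophores, yellow xanthophores and silvery iridophores. Transcription factors such as Foxd3, Sox9b and Sox10 act early in crest cells and then in separate lineages, while enzymes of pteridine synthesis and melanosome proteins mark pigment cells as they differentiate.

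Levels are log2 of the deposited probe set intensity, and n was 4 pools per group throughout. Medians of all probe sets lay between 45.5 and 48.1 on the linear scale on the 16 arrays. The targeted gene rad21a read 10.06 to 10.55 on the 8 wild-type arrays and 5.92 to 7.06 on the 8 mutant arrays, with no overlap. Probe sets for 5 sequences foreign to the zebrafish gave a scale for background: their 80 values had a median of 4.66 and ran from 2.77 to 7.22. The medians of the single sequences ran from 2.93 to 6.44. The ratio of 3' to 5' probe sets of acta1, a measure of RNA integrity and labelling, was larger in the mutants by 0.62 log2 units at 24 hpf and by 0.95 at 48 hpf (exact two-sided permutation test, p = 0.0286 at each time, the smallest that 4 against 4 allows, 0.0571 adjusted over 4 tests). The same measure for GAPDH differed by 0.12 and 0.02 (exact permutation p = 0.143 and 0.514), and the part of either in the values below was not tested. Wild-type pool 1 at 24 hpf correlated least with its group at that time and was the lowest of its 4 pools for 5 of the 7 genes (foxd3, sox10, sox9b, crestin and gch2). Of all 16 arrays, mutant pool 4 at 48 hpf correlated least with its group (mean r 0.9834, against 0.9847 for wild-type pool 1 at 24 hpf). For several results the value without wild-type pool 1 or without that mutant pool is given as well.

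**Figure D1:**
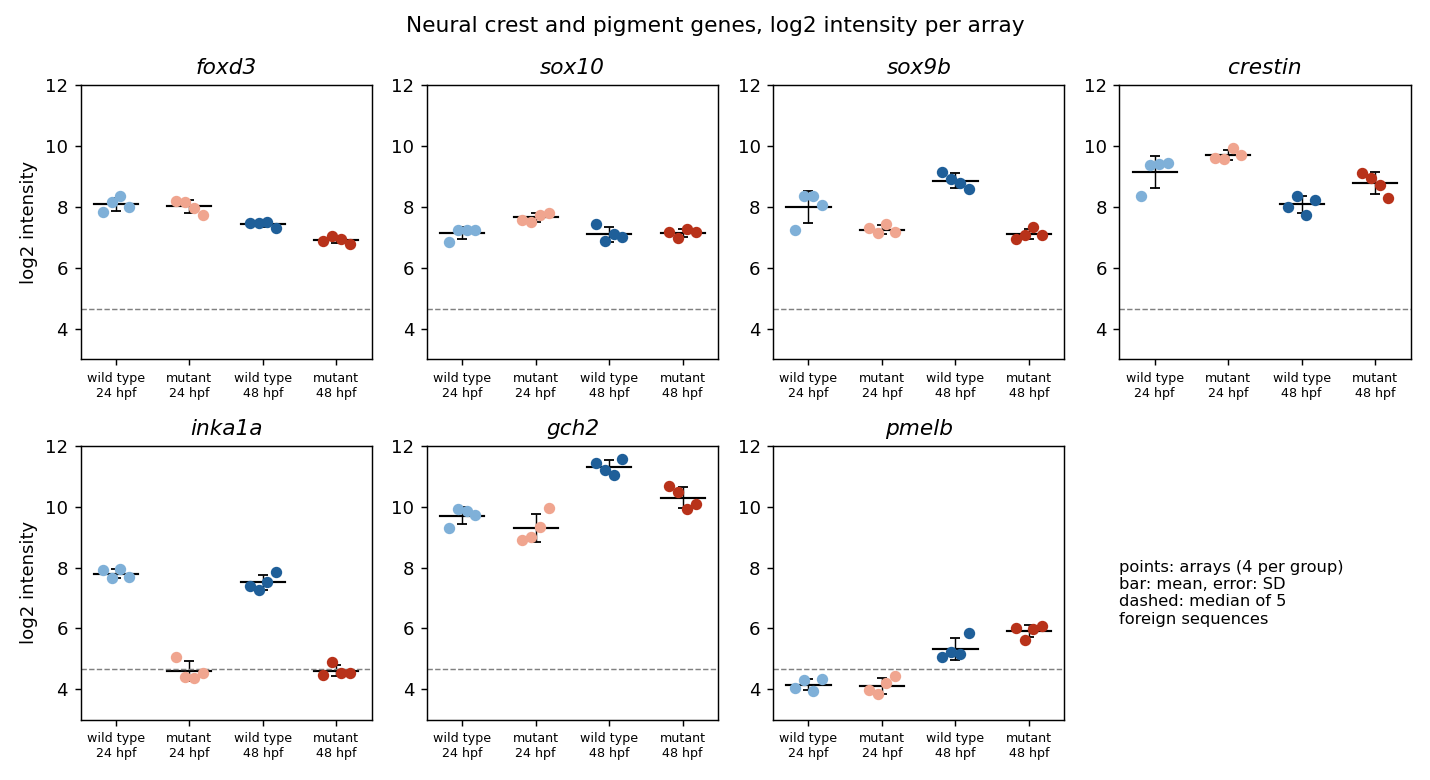
Log2 intensity (vertical axis) of the 7 genes on each of the 16 arrays, by group (horizontal axis). Points are arrays, bars are means with the SD, and the dashed line is the median of the foreign sequences at 4.66. The 8 mutant points of inka1a sit near that line, and so do all 8 points of pmelb at 24 hpf.

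A gene was called when its limma p-value, adjusted by Benjamini-Hochberg over all 15502 probe sets, was under 0.05. At 24 hpf, 1 of the 7 genes was called higher in mutants (sox10) and 2 lower (inka1a and sox9b), where 3.61% of the 8793 named genes were called higher and 5.08% lower. At 48 hpf, 2 were called higher (crestin and pmelb) and 4 lower (inka1a, sox9b, gch2 and foxd3), where 9.66% of named genes were called higher and 8.18% lower. With 1 array left out, the count called ran from 1 to 3 at 24 hpf and from 4 to 6 at 48 hpf. The genes were chosen with these contrasts known, so nothing is read from those counts. The difference between the contrasts at 48 and 24 hpf was called for 0 of the 7 genes, where 0.773% of named genes were called higher and 1.03% lower. The median log2 change of the 7 genes was -0.06 at 24 hpf and -0.52 at 48 hpf, and the medians of all named genes were -0.005 and 0.03.

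Among the transcription factors, foxd3 encodes a forkhead protein of premigratory crest cells that persists in glial precursors. It read 7.83, 8.15, 8.34 and 7.98 in the 4 wild-type pools at 24 hpf and 8.20, 8.17, 7.97 and 7.74 in the mutant pools. At 48 hpf it read 7.47, 7.48, 7.51 and 7.30 in wild type and 6.87, 7.05, 6.95 and 6.79 in mutants. The genotypes overlapped at 24 hpf, with mutant pool 4 lowest and wild-type pool 3 highest, and did not overlap at 48 hpf, when each mutant pool was below each wild-type pool. The log2 difference, mutant minus wild type, was -0.06 ± 0.12 (SE) at 24 hpf (-0.14 without wild-type pool 1) and -0.52 ± 0.12 at 48 hpf, a level 1.44-fold lower. The order of the group means was wild type 24 hpf (8.08 ± 0.22, SD), mutant 24 hpf (8.02 ± 0.21), wild type 48 hpf (7.44 ± 0.10) and mutant 48 hpf (6.92 ± 0.11), of which the first pair lay within their spread.

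Sox10 is a SoxE factor needed by the pigment, glial and neuronal derivatives of the crest, and it is also made in the otic vesicle and in oligodendrocytes. Its probe set read 6.86, 7.25, 7.23 and 7.22 in wild type and 7.55, 7.51, 7.72 and 7.80 in mutants at 24 hpf. At 48 hpf the wild-type pools read 7.44, 6.86, 7.10 and 7.02 and the mutant pools 7.18, 6.96, 7.25 and 7.17. All 4 mutant pools stood above the wild-type pools at 24 hpf, and the genotypes overlapped at 48 hpf. The log2 difference was 0.51 ± 0.13 (SE), 1.42-fold higher, at 24 hpf and 0.04 ± 0.13 at 48 hpf. Without wild-type pool 1 the 24 hpf difference was 0.41. The mutant 24 hpf mean of 7.65 ± 0.14 (SD) was the highest of the 4 groups, and the other three (7.14 ± 0.19 in wild type at 24 hpf, 7.10 ± 0.24 in wild type and 7.14 ± 0.13 in mutants at 48 hpf) lay within their spread.

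The SoxE factor Sox9b acts in crest cells and in the forming cartilage of the head. Its brighter probe set read 7.23, 8.35, 8.35 and 8.07 in wild type and 7.29, 7.14, 7.43 and 7.16 in mutants at 24 hpf. At 48 hpf it read 9.15, 8.90, 8.79 and 8.60 in wild type and 6.95, 7.06, 7.34 and 7.08 in mutants. Wild-type pool 1 lay inside the mutant range at 24 hpf while the other 3 were above it, and at 48 hpf the genotypes were far apart. The level in mutants was lower by 1.68-fold at 24 hpf (log2 -0.75 ± 0.19, SE, and -1.005 without wild-type pool 1) and by 3.37-fold at 48 hpf (log2 -1.75 ± 0.19). With each array left out in turn, the 24 hpf difference ran from -1.005 to -0.63. The order of the means was wild type 48 hpf (8.86 ± 0.23, SD), wild type 24 hpf (8.0 ± 0.53), mutant 24 hpf (7.25 ± 0.14) and mutant 48 hpf (7.11 ± 0.17), with the last pair within their spread. The other sox9b probe set stayed between 3.94 and 4.45 on all 16 arrays, below the median of the foreign sequences, and no change can be read from it.

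The gene crestin is transcribed across the migrating crest of zebrafish and is used as a marker of all crest cells. It read 8.36, 9.36, 9.42 and 9.42 in wild type at 24 hpf and 9.60, 9.58, 9.91 and 9.70 in mutants. At 48 hpf it read 7.99, 8.36, 7.74 and 8.22 in wild type and 9.12, 8.95, 8.73 and 8.29 in mutants. The mutant pools were all above the wild-type pools at 24 hpf, and at 48 hpf only mutant pool 4 fell into the wild-type range. The log2 difference was 0.56 ± 0.22 (SE) at 24 hpf (0.30 without wild-type pool 1), and 0.69 ± 0.22 at 48 hpf, 1.62-fold higher. With each array left out in turn, the 48 hpf difference ran from 0.58 to 0.85. The order of the means was mutant 24 hpf (9.70 ± 0.15, SD), wild type 24 hpf (9.14 ± 0.52), mutant 48 hpf (8.77 ± 0.36) and wild type 48 hpf (8.08 ± 0.27). The neighbouring ranges of wild type 24 hpf and mutant 48 hpf overlapped.

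The gene inka1a encodes a small protein that binds a Pak kinase and is expressed in migrating crest and other embryonic mesenchyme. Its brighter probe set read 7.91, 7.64, 7.96 and 7.70 in wild type and 5.07, 4.42, 4.38 and 4.54 in mutants at 24 hpf. At 48 hpf it read 7.41, 7.27, 7.52 and 7.86 in wild type and 4.48, 4.88, 4.54 and 4.53 in mutants. Mutant and wild-type pools stood apart at both times, and the mutant means of 4.60 ± 0.32 (SD) and 4.61 ± 0.19 were just under the foreign median, against wild-type means of 7.80 ± 0.15 and 7.51 ± 0.25. The means of the 2 times lay within their spread in each genotype. Levels in mutants were 9.19-fold lower at 24 hpf (log2 -3.20 ± 0.15, SE) and 7.50-fold lower at 48 hpf (log2 -2.91 ± 0.15), and with the mutant level at background the fold may be compressed. The other probe set of the gene, which ran from 6.18 to 7.20 in wild type and from 4.24 to 4.94 in mutants, was 5.40-fold lower at 24 hpf and 4.52-fold lower at 48 hpf.

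Of the pigment genes, gch2 encodes GTP cyclohydrolase, which starts pteridine synthesis and marks xanthophores and their precursors. Its brighter probe set read 9.29, 9.93, 9.87 and 9.73 in wild type and 8.91, 9.0, 9.33 and 9.94 in mutants at 24 hpf. At 48 hpf it read 11.43, 11.21, 11.03 and 11.55 in wild type and 10.69, 10.47, 9.93 and 10.10 in mutants. The genotypes overlapped at 24 hpf, and every mutant pool was below every wild-type pool at 48 hpf. The log2 difference was -0.41 ± 0.21 (SE) at 24 hpf (-0.55 without wild-type pool 1) and -1.01 ± 0.21 at 48 hpf, 2.01-fold lower. The order of the means was wild type 48 hpf (11.31 ± 0.23, SD), mutant 48 hpf (10.30 ± 0.35), wild type 24 hpf (9.71 ± 0.29) and mutant 24 hpf (9.29 ± 0.47), and the neighbours at 24 hpf were within their spread. The dimmer gch2 probe set, at 4.32 to 5.78, was also lower in mutants at 48 hpf (log2 -0.59, 1.51-fold). Its levels lay within the range of the foreign sequences (2.77 to 7.22).

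The gene pmelb encodes a form of the premelanosome protein, which builds the fibrils on which melanin is laid down in pigment cells of the crest and in the retinal pigment epithelium. It read 4.05, 4.30, 3.95 and 4.33 in wild type and 3.96, 3.83, 4.22 and 4.44 in mutants at 24 hpf. At 48 hpf it read 5.07, 5.21, 5.17 and 5.86 in wild type and 6.0, 5.63, 5.97 and 6.08 in mutants. All pools at 24 hpf were under the foreign median, so no order is read there (means 4.16 ± 0.19 and 4.11 ± 0.27, SD). At 48 hpf the mutant mean of 5.92 ± 0.20 was above the wild-type mean of 5.33 ± 0.36, although wild-type pool 4 lay inside the mutant range. All pools at 48 hpf were within the range of the foreign sequences (2.77 to 7.22). The log2 difference was -0.04 ± 0.17 (SE) at 24 hpf and 0.59 ± 0.17 at 48 hpf, 1.51-fold higher. With each array left out in turn, the latter ran from 0.50 to 0.77.

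**Figure D2:**
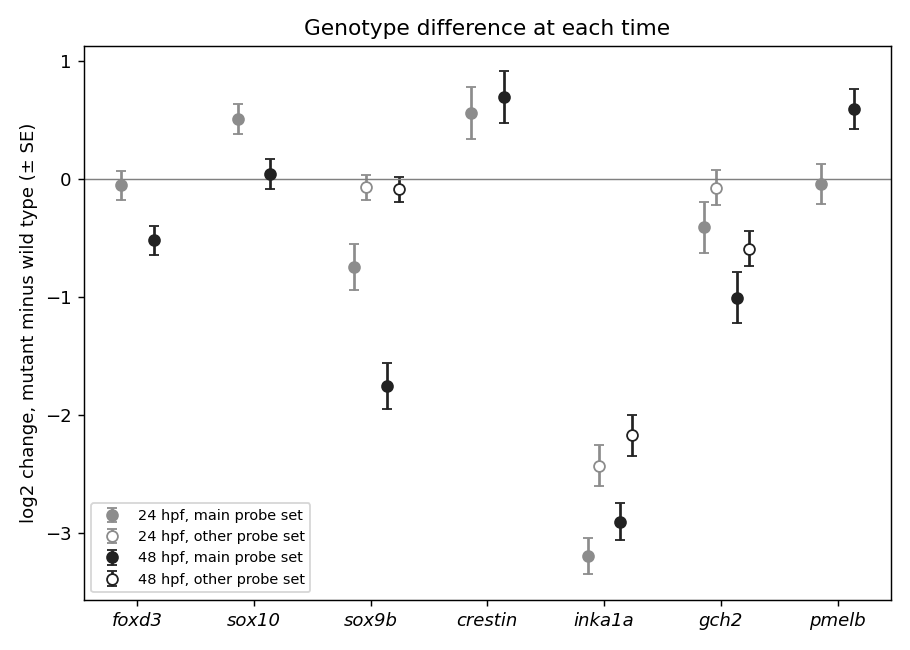
Log2 change, mutant minus wild type (vertical axis, with the SE), of each gene (horizontal axis) at 24 hpf in grey and 48 hpf in black. Filled points are the brighter probe set of a gene and open points its other probe set. For sox9b, gch2, foxd3 and sox10 the 48 hpf point is lower than the 24 hpf point, and pmelb lies at -0.04 and then 0.59.

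The change between 24 and 48 hpf was tested within each genotype. In wild type, 3 of the 7 genes rose (gch2, pmelb and sox9b) and 2 fell (crestin and foxd3), where 14.4% of named genes rose and 21.7% fell. In mutants, 2 rose (pmelb and gch2) and 3 fell (foxd3, crestin and sox10), where 12.6% of named genes rose and 15.4% fell. The median log2 change of the 7 genes was -0.04 in wild type and -0.15 in mutants, against -0.06 and -0.02 over all named genes.

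The pigment genes gch2 and pmelb rose in both genotypes. The brighter gch2 probe set rose 3.03-fold in wild type (log2 1.60 ± 0.21, SE, limma adjusted p = 3.27e-05) and 2.01-fold in mutants (log2 1.00 ± 0.21, adjusted p = 0.00267). All wild-type pools at 48 hpf were above those at 24 hpf, while in mutants the highest pool at 24 hpf (9.94) just passed the lowest at 48 hpf (9.93). The dimmer probe set rose in wild type (log2 0.89, adjusted p = 0.000226), and its mutant change of 0.38 was not called (adjusted p = 0.0755). Levels of pmelb rose 2.26-fold in wild type (log2 1.17 ± 0.17, adjusted p = 6.49e-05) and 3.50-fold in mutants (log2 1.81 ± 0.17, adjusted p = 1.36e-06). The 24 hpf level of pmelb was at background, so these folds may be compressed.

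The crest markers crestin and foxd3 fell in both genotypes. Levels of crestin fell 2.09-fold in wild type (log2 -1.06 ± 0.22, SE, limma adjusted p = 0.00148) and 1.90-fold in mutants (log2 -0.93 ± 0.22, adjusted p = 0.00562). Without wild-type pool 1 at 24 hpf, which was as low as the highest pool at 48 hpf, the fall in wild type was log2 -1.32. For foxd3 the fall was 1.55-fold in wild type (log2 -0.64 ± 0.12, adjusted p = 0.000718) and 2.15-fold in mutants (log2 -1.10 ± 0.12, adjusted p = 6.54e-06).

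The SoxE genes passed the test in 1 genotype each, which by itself does not show a difference between genotypes. These tests use the same arrays as the genotype differences by which the genes are treated as chosen. In wild type sox9b rose 1.81-fold (log2 0.86 ± 0.19, SE, limma adjusted p = 0.00289, and 0.60 without pool 1 at 24 hpf), and its change in mutants was log2 -0.15 (95% interval -0.56 to 0.26, adjusted p = 0.636). In mutants sox10 fell 1.42-fold (log2 -0.51 ± 0.13, adjusted p = 0.00745), and its change in wild type was log2 -0.04 (95% interval -0.30 to 0.23, adjusted p = 0.857). The difference between the genotypes in their change with time is the same quantity as the difference of the genotype contrasts. On the log2 scale with the SE it was -1.01 ± 0.28 for sox9b, -0.47 ± 0.18 for sox10 and -0.47 ± 0.17 for foxd3. It was -0.60 ± 0.30 for gch2, 0.63 ± 0.24 for pmelb, 0.29 ± 0.22 for inka1a and 0.13 ± 0.31 for crestin. In the fit to all arrays it was called for 0 of the 7 genes. Without wild-type pool 1 at 24 hpf it was -0.75 for sox9b, -0.37 for sox10, -0.39 for foxd3, -0.46 for gch2 and 0.39 for crestin. For inka1a the change with time was log2 -0.29 in wild type (95% interval -0.61 to 0.04, adjusted p = 0.179) and 0.01 in mutants (95% interval -0.32 to 0.33, adjusted p = 0.984), the latter at background.

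**Figure D3:**
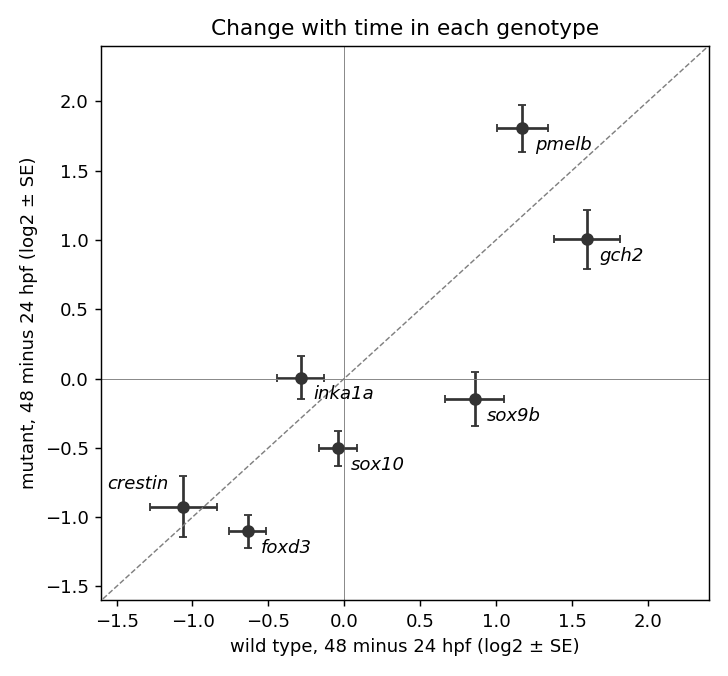
Log2 change from 24 to 48 hpf in wild type (horizontal axis) and in mutants (vertical axis) of the 7 genes, each with the SE in both directions. The dashed line marks equal change: pmelb, inka1a and crestin lie above it, gch2, sox9b, sox10 and foxd3 below it, and sox9b is to the right of 0 at 0.86 and near 0 at -0.15 on the vertical axis.

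Other genes of the same pathways were taken from 5 lists, which together held 152 genes, of which 76 other than the 7 were measured. These lists, and those for other tissues below, were chosen with earlier results of these data known. The p-values of listed genes may therefore not be independent of that choice. Of the 76, 1 was called higher and 12 lower in mutants at 24 hpf, where 3.61% of named genes were called higher and 5.08% lower. At 48 hpf 4 were higher and 23 lower, where 9.66% of named genes were called higher and 8.18% lower. The counts of each list below are to be read beside the same shares. The median log2 change of the 76 genes was -0.07 at 24 hpf and -0.13 at 48 hpf, beside -0.005 and 0.03 over all named genes.

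Among 29 measured crest specifiers and migration genes, 0 rose and 9 fell in mutants at 24 hpf, and 1 rose and 12 fell at 48 hpf, with medians of -0.24 and -0.28. The zinc finger repressor snai2, which acts in crest cells leaving the neural tube, was 1.97-fold lower at 24 hpf (limma adjusted p = 0.000299) and 2.50-fold lower at 48 hpf (adjusted p = 3.63e-06). Of its dimmer probe sets, 1 was called lower at both times (log2 -0.55 at each) and 1 was not called (-0.28 and -0.07). Both had means under the foreign median (3.58 and 3.29), so little can be read from either. The inka1a paralogue inka1b was 2.06-fold lower at 24 hpf (adjusted p = 0.0025) and 3.79-fold lower at 48 hpf (adjusted p = 2.3e-06). At 24 hpf the Myc family gene mycn (1.67-fold, adjusted p = 0.00145) and the homeobox gene dlx5a of the pharyngeal arches (1.52-fold, adjusted p = 0.00717) were also lower, and both were lower at 48 hpf too (log2 -0.98, adjusted p = 3.46e-05, and -0.44, adjusted p = 0.0233). At 48 hpf the cadherin gene cdh11 was 3.51-fold lower (adjusted p = 6.1e-07) and the AP-2 factor gene tfap2b 2.11-fold lower (adjusted p = 1.49e-06). For both, the difference between the contrasts was also called. Of the 29 genes, 4 (sox9a, sox8b, pax3a and pax7a) had means under the foreign median in all 4 groups. In whole embryos the genes of this list may also be read from tissues other than the crest. The part of those tissues in these values and counts was not tested.

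The pigment lists were shorter, with 10, 11 and 11 measured genes, so raw counts of calls are not compared between lists. Of 10 measured melanophore genes, 0 were called at 24 hpf, and at 48 hpf 2 were higher and 0 lower: the melanosome trafficking GTPase gene rab32a (1.62-fold, limma adjusted p = 0.000425) and the tetraspanin gene tspan36 (1.64-fold, adjusted p = 0.00892). Their log2 differences were 0.70 and 0.71. Without mutant pool 4 at 48 hpf they were 0.58 and 0.52, the lowest with any array left out, and both calls were kept. The master regulator mitfa was not called at either time (log2 -0.04 and -0.03), and mitfb, tyr, kita, mc1r and ednrba were under the foreign median in all groups. Of 11 measured xanthophore and pteridine genes, 1 was higher and 1 lower at 24 hpf, and 0 were higher and 3 lower at 48 hpf. Those 3 were slc2a15b (2.2-fold, adjusted p = 0.000228) and slc2a11b (1.42-fold, adjusted p = 0.0213), transporter genes needed by pigment cells of medaka, and scarb1 (1.69-fold, adjusted p = 0.0019), a receptor for carotenoid uptake. The 2 called at 24 hpf were the carotenoid-cleaving enzyme bco1 (1.70-fold higher, adjusted p = 0.0247) and thymidylate synthase tyms (1.52-fold lower, adjusted p = 0.0342). With 1 array left out, the call was lost in 5 of 16 fits for bco1 (log2 0.65 to 1.00), in 6 for tyms (-0.66 to -0.49) and in 3 for slc2a11b (-0.59 to -0.40). Of 11 measured iridophore and purine synthesis genes, 0 were called at 24 hpf and 1 was lower at 48 hpf: impdh2 (1.35-fold, adjusted p = 0.0472), a call lost in 13 of 16 fits that each left out 1 array (log2 -0.56 to -0.33).

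Among 17 measured genes of crest-derived glia and neurons, 0 were higher and 2 lower at 24 hpf, and 1 was higher and 7 were lower at 48 hpf. The proneural gene ascl1a was 3.45-fold lower at 24 hpf (limma adjusted p = 8.16e-06) and 3.76-fold lower at 48 hpf (adjusted p = 9.16e-07). The POU factor gene pou3f1 was 1.40-fold lower at 24 hpf (adjusted p = 0.0465, a call lost in 12 of 16 fits with 1 array left out, log2 -0.63 to -0.35) and 2.94-fold lower at 48 hpf (adjusted p = 1.19e-06). At 48 hpf isl1a (1.91-fold, adjusted p = 0.000126) and neurod1 (2.01-fold, adjusted p = 0.000132) were lower too. All 4 are also expressed in the central nervous system, and mbpa, nrg1, th, dbh and gdnfa of the list were under the foreign median in all groups.

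**Figure D4:**
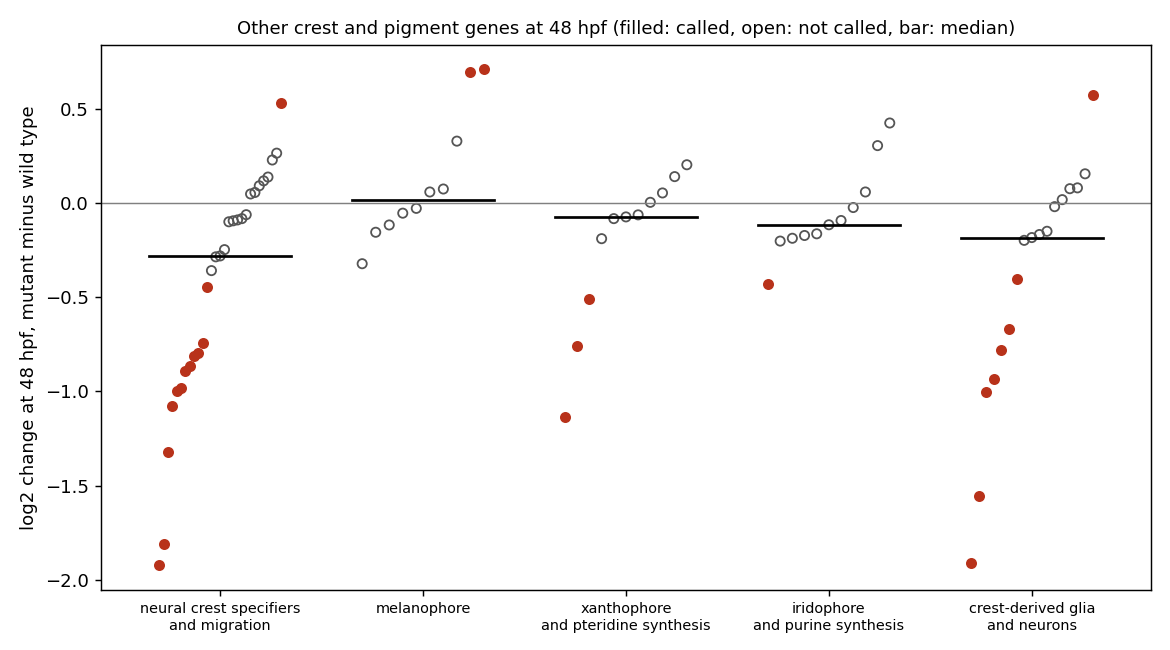
Log2 change at 48 hpf, mutant minus wild type (vertical axis), of the measured genes of 5 crest and pigment lists (horizontal axis), without the 7 genes. Filled points are called, open points are not, and bars are medians. The crest specifier list has 12 called points below 0 and 1 above, and the melanophore list 2 above and 0 below.

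With time, 21 of the 76 genes rose and 11 fell in wild type, where 14.4% of named genes rose and 21.7% fell. In mutants 10 rose and 13 fell, shares near the 12.6% and 15.4% of named genes. Of the melanophore genes 2 rose and 1 fell in wild type, and 3 rose and 1 fell in mutants. The melanin enzyme gene dct rose 6.91-fold in wild type (limma adjusted p = 1.78e-05) and 10.5-fold in mutants (adjusted p = 4.37e-06), and tspan36 rose 1.94-fold (adjusted p = 0.000489) and 3.03-fold (adjusted p = 5.93e-06). The SD of dct among pools at 24 hpf was 0.532 in wild type and 0.999 in mutants. The rises were not called different between genotypes for dct (log2 0.61, limma adjusted p = 0.702) or tspan36 (0.65, adjusted p = 0.267). The change of rab32a was 1.27-fold down in wild type (adjusted p = 0.0273, lost in 5 of 16 fits with 1 array left out) and 1.33-fold up in mutants (adjusted p = 0.0146, lost without mutant pool 4 at 48 hpf, log2 0.29). The receptor gene mchr1b fell 2.08-fold in mutants (adjusted p = 0.034, lost in 5 of 16 such fits, log2 -1.37 to -0.68). Of the xanthophore genes 6 rose and 1 fell in wild type, and 4 rose and 0 fell in mutants. The regulator gchfr of GTP cyclohydrolase rose 1.94-fold and 1.62-fold, and the pterin dehydratase gene pcbd1 rose 1.93-fold and 1.72-fold, in wild type and mutants (all 4 adjusted p at most 0.000602). In wild type bco1 (2.03-fold, adjusted p = 0.000809) and slc2a11b (1.90-fold, adjusted p = 0.000115) rose. In mutants slc2a11b (1.35-fold, adjusted p = 0.033) and mycbp2 (1.29-fold, adjusted p = 0.0439) rose, with calls lost in 5 and 11 of 16 fits that left out 1 array.

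Of the crest specifiers 4 rose and 6 fell in wild type, and 2 rose and 8 fell in mutants. Both cdh11 (2.06-fold, limma adjusted p = 8.55e-05) and tfap2b (2.02-fold, adjusted p = 1.24e-06) rose in wild type, while twist3 rose (2.17-fold and 1.81-fold) and zic2b fell (1.76-fold and 1.96-fold) in wild type and mutants. Levels of mycn fell in wild type (log2 -0.62, adjusted p = 0.00102) and in mutants (1.83-fold, adjusted p = 8.75e-05), and the snail family gene snai1a fell in mutants (1.67-fold, adjusted p = 0.00155). Of the iridophore genes 2 rose and 2 fell in wild type, and 1 rose and 2 fell in mutants. Among these purine enzymes atic rose 1.52-fold (adjusted p = 0.00148) and gart fell 1.61-fold (adjusted p = 0.00583) in wild type, and adsl rose 1.45-fold in wild type (adjusted p = 0.0131, lost without pool 4 at 48 hpf, log2 0.42) and 1.60-fold in mutants (adjusted p = 0.00372). The weaker calls, mpv17 in wild type (1.32-fold down) and prps1b (1.30-fold down) and prps1a (1.26-fold down) in mutants, were lost in 12, 1 and 5 of 16 fits with 1 array left out. Of the glial and neuronal genes 7 rose and 1 fell in wild type, and 0 rose and 2 fell in mutants. The 1 that fell in wild type was egr2b (3.60-fold, adjusted p = 1.12e-06), a factor of the hindbrain and of Schwann cells, which also fell in mutants (2.13-fold, adjusted p = 0.000387). Its means at 48 hpf (3.93 in wild type and 4.51 in mutants) were under the foreign median, so these folds may be compressed. In wild type pou3f1 (2.18-fold, adjusted p = 1.87e-05), neurod1 (1.61-fold, adjusted p = 0.00156) and the myelin gene mbpb (1.44-fold, adjusted p = 0.00273) rose. Levels of isl1a rose in wild type (log2 0.49, adjusted p = 0.00904) and fell in mutants (1.47-fold, adjusted p = 0.00573).

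Other tissues, and head cartilage, which the crest forms in part, also express some of the 7 genes, and their markers moved as follows. Of all named genes, 3.61% were called higher and 5.08% lower in mutants at 24 hpf, and 9.66% and 8.18% at 48 hpf. For cartilage, where sox9 genes act, 16 genes were measured and 5 were lower in mutants at 48 hpf, none higher, with matn4 3.72-fold (limma adjusted p = 4.73e-05) nkx3-2 1.78-fold (adjusted p = 0.000545), hand2 1.72-fold (adjusted p = 0.00222) and barx1 1.34-fold lower (adjusted p = 0.037, lost in 5 of 16 fits with 1 array left out). At 24 hpf 1 of them was lower (matn4, 2.89-fold, adjusted p = 0.000995). With time, 6 rose in wild type and 3 in mutants, among them runx2a (3.94-fold and 3.40-fold), matn4 (3.23-fold and 2.52-fold) and nkx3-2 (2.07-fold and 1.55-fold) in both, and hand2 (1.48-fold) in wild type. Their summed linear intensity at 48 hpf ran from 3671 to 4971 in wild type and from 1938 to 4599 in mutants, and sox9a, acanb, runx2b and barx1 were under the foreign median throughout. The brightest in that sum were col2a1a (log2 means 10.39 in wild type and 9.84 in mutants), col9a1b (9.61 and 9.46) and col9a2 (9.30 and 9.04). These were not called between genotypes at either time, and their SD among mutant pools at 48 hpf was 0.92, 0.82 and 0.64. The gene hand2 is also counted among the lower genes of the glia and neuron list, and sox9a is also on the crest specifier list. The lists are therefore not separate readings. The part of cartilage in the sox9b values was not tested.

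For the retinal pigment epithelium, 10 genes were measured, of which 1 was lower in mutants at 24 hpf (bhlhe40, 1.74-fold, limma adjusted p = 0.009), and 2 were higher and none lower at 48 hpf. The latter were rlbp1a (1.97-fold, limma adjusted p = 0.000184) and rpe65a (1.56-fold, adjusted p = 0.0012), both of the retinoid cycle. For rlbp1a the log2 difference was 0.98, and 0.85 without mutant pool 4 at 48 hpf. With time, 5 of the 10 genes rose in each genotype, while 2 fell in wild type and 1 in mutants. Besides dct, rpe65a rose in both genotypes (1.52-fold and 1.93-fold) and otx1 fell in both (1.82-fold and 1.90-fold), while rgrb rose 2.02-fold in wild type and by log2 0.76 in mutants, and rlbp1a by log2 0.61 in wild type and 3.29-fold in mutants. The means of rlbp1a at 24 hpf (4.53 in wild type and 4.40 in mutants) were under the foreign median, so its rises may be compressed. The summed intensity of the list at 48 hpf was 1865 to 2323 in wild type and 1959 to 2141 in mutants, and that of the melanophore list 1751 to 2243 and 2305 to 3166. Both lists hold dct, tyr and mitfb, and dct was the brightest gene of the retinal list at 48 hpf. The sums are therefore not separate readings of the tissues. The brightest melanophore genes at 48 hpf were dct (log2 means 9.71 in wild type and 9.78 in mutants) and tspan36 (9.58 and 10.29). As 5 of the 10 melanophore genes were under the foreign median, the sum does not speak for the whole list. The part of this tissue in the pmelb values was not tested.

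For the otic vesicle, where sox10 is also made, 15 genes were measured, with 1 higher and 3 lower at 24 hpf and 0 higher and 2 lower at 48 hpf. At 24 hpf sparc was 1.35-fold higher (limma adjusted p = 0.0145, lost without mutant pool 4, log2 0.37), and foxi1 (1.83-fold, adjusted p = 0.000255), eya1 (1.51-fold, adjusted p = 0.00201) and fgf8a (1.44-fold, adjusted p = 0.0356, lost in 6 of 16 fits with 1 array left out) were lower. At 48 hpf fgf8a (1.52-fold, adjusted p = 0.00903) and eya1 (1.31-fold, adjusted p = 0.0172, lost without wild-type pool 1, log2 -0.32) were lower. The summed intensity of the list at 24 hpf was 2973 to 3654 in wild type and 3612 to 3993 in mutants, and pax2b and fgf3 were under the foreign median. The brightest gene in that sum was sparc, with log2 means of 10.66 in wild type and 11.10 in mutants. With time, 2 rose and 5 fell in wild type, and 1 rose and 2 fell in mutants. Levels of sparc rose (1.80-fold and 1.42-fold) and those of fgf8a fell (1.74-fold and 1.83-fold) in both genotypes. In wild type otomp rose (1.46-fold) and foxi1 fell (1.86-fold), and six4b fell in both genotypes (log2 -0.58 in wild type and 1.64-fold in mutants). Of 6 measured genes listed for the oligodendrocyte lineage, which also makes Sox10, 1 was lower at both times: olig3, 1.61-fold at 24 hpf (adjusted p = 0.0217, lost in 5 of 16 fits with 1 array left out) and 2.59-fold at 48 hpf (adjusted p = 3.46e-05). The others were not called at either time, among them olig2 (log2 -0.06 and -0.59), nkx2.2a (-0.53 and -0.41) and cldnk (0.19 and 0.23). With time 2 fell in wild type, nkx2.2b (1.40-fold) and olig3 (1.44-fold, lost in 5 of 16 such fits), and olig3 fell in mutants (2.31-fold). The summed intensity of the list at 24 hpf was 456 to 506 in wild type and 329 to 403 in mutants, and mbpa was under the foreign median. The brightest gene in that sum was olig3, with log2 means of 7.99 in wild type and 7.30 in mutants. The genotype calls of this list thus rest on olig3 alone. Whether olig3 marks this lineage in these embryos was not tested. The part of either tissue in the sox10 values was not tested.

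Of the listed genes named above, 6 more had a dimmer probe set that was not called where the brighter was: zic2b, mchr1b, mpv17, isl1a, olig3 and runx2a. The means of those of olig3 (3.25), zic2b (3.46), isl1a (3.50), mchr1b (4.01) and mpv17 (4.39) were under the foreign median of 4.66. A missing call on them therefore does not speak against the brighter probe set. The mean for runx2a was 5.38. For runx2a it changed with time by log2 0.15 in wild type and 0.24 in mutants, and for isl1a it differed by -0.31 at 48 hpf. At 48 hpf the dimmer runx2a probe set differed between genotypes by log2 0.05. The brighter one was called lower (-0.67, limma adjusted p = 0.0477) and is counted among the 5 cartilage genes lower in mutants.

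For each gene whose group means spanned at least 1 log2 unit, the 3 named genes with the most similar 4-group profile were found, by the root mean square difference of group means after centring. Those for sox9b were cdh11 (0.09 log2 units), pcmt (0.12) and six2a (0.12), and those for foxd3 were septin6 (0.04), ccdc77 (0.06) and selenop2 (0.07). The nearest to crestin were slc2a10 (0.07), optc (0.08) and tcf15 (0.11), and to gch2 prrx1b (0.06), tgm2b (0.07) and pcp4a (0.09). The nearest to pmelb were calm3a (0.03), aldocb (0.10) and tspan36 (0.12). For inka1a the distances were larger: gja1b (0.31), myca (0.36) and rad21a itself (0.39). The means of sox10 spanned 0.54, so no such genes are named for it.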

How the data were processed

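The authors deposited normalized probe set intensity values on a linear scale for 16 arrays, and the submitters' processing notes name GCOS, RMA and affy. For versions and background correction, nothing is given in the sources used here. The tests had been laid out for log2 values or for linear ones, and as the values were linear, log2 was taken without a pseudocount. Of 15617 probe sets, 115 controls were left out. Symbols came from the platform annotation (10795 probe sets with 1 symbol, 135 with several, 4572 with none), and were updated with the RefSeq annotation of assembly GRCz12tu, which held 10711 of them and changed 1. Each gene was read from its brightest probe set by the mean of all arrays.

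A mean for each group was fitted to all arrays with limma 3.58.1 in R 4.3.3 (12 residual degrees of freedom, eBayes prior of 4.97), and the Benjamini-Hochberg adjustment of the two-sided p-values ran over 15502 probe sets. Listed genes described as rising, falling, higher or lower without a printed p were also called in this fit. For genes named only as not called, as under the foreign median or for a similar profile, no call is implied. The number of arrays limits the precision. The pools are biological replicates per the labels. Sequences of the genes were not used here.

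The members and the 9 gene lists were chosen with earlier results of these data known. From each list, the up to 4 called genes with the smallest adjusted p per comparison are named, as are genes under the foreign median in all groups. Listed genes under it in only some groups are not all marked. The genes mitfa, olig2, nkx2.2a and cldnk were added after their values were seen. The alternatives were 3 scalings, a filter on dim probe sets, only the groups compared, eBayes with trend and robust settings, array weights, a replicate block, a pseudocount of 16, the probe set with the lowest mean and each array left out.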

Additional observations from a re-analysis of the deposited data

Results flagged for a closer look

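A single array stood apart from the other 3 of its group in 3 of 40 groups examined, and chance gives about 1 in 20. These were sox10 at 6.86 and crestin at 8.36 in wild-type pool 1 at 24 hpf, both low, and inka1a at 4.88 in mutant pool 2 at 48 hpf, which was high but near the foreign median of 4.66.

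The mutant difference at 48 hpf departed from that at 24 hpf, by the limma test of the difference of contrasts, for 7 of the listed genes. Of the 76 crest and pigment genes, 1 was called higher and 4 lower for this difference, where 0.773% of named genes were called higher and 1.03% lower. The mutant difference was more negative at 48 hpf by log2 -1.30 for cdh11, -0.77 for tfap2b, -1.05 for isl1a and -1.07 for pou3f1. It was more positive by 0.75 for rab32a, 1.04 for foxi1 and 1.11 for rlbp1a. The dimmer isl1a probe set, with a mean under the foreign median, gave -0.44 and was not called. The call for rab32a was lost in 4 of 16 fits with 1 array left out.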

How the results depend on the processing

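No member changed direction where it was called, and every called change with time of the members kept its call in all 16 fits with 1 array left out and under the other settings run on the brighter probe sets; on the dimmer ones, gch2 in mutants (0.38) and sox9b in wild type (0.14) were not called. With 1 array left out, the count of members called at 24 hpf ran from 1 to 3, against 3. The counts of the 76 other crest and pigment genes ran from 0 to 2 higher (against 1) and 5 to 14 lower (against 12) at 24 hpf, 0 to 2 higher for the difference of contrasts (against 1), and 8 to 16 falling with time in mutants (against 13). The members were chosen with the genotype contrasts known, so nothing is read from the counts of members. With 1 array left out, the log2 difference at 24 hpf ran from 0.41 to 0.55 for sox10 and from -1.005 to -0.63 for sox9b. At 48 hpf it ran from 0.58 to 0.85 for crestin and from 0.50 to 0.77 for pmelb. Of the 76 other genes, 2 were higher at 24 hpf when only the 2 groups compared were fitted. Array weights gave 4 higher and 19 lower at 24 hpf, 3 higher and 1 member called for the difference (sox9b, -0.86), and 17 falling with time in wild type; 7 fell there under cyclic loess. A pseudocount of 16 gave 7 lower at 24 hpf. Without the 3 arrays least like their groups, an alternative chosen after seeing the data, 3 were higher at 24 hpf, 7 higher at 48 hpf and 3 higher for the difference. Of the members, 5 were called at 48 hpf under quantile scaling, under cyclic loess and with only the groups compared, against 6. With only the groups compared, 2 were called at 24 hpf, against 3. The 48 hpf difference of crestin was 0.67 under quantile scaling and 0.65 under cyclic loess, and that of pmelb was 0.49 without the 3 arrays. Same-numbered pools deviated together in some pairs but not in all (r -0.31 to 0.43, above 0.1 in 7 of 16, own number best in 7), so the numbers were not taken as pairs. Between genotypes r was 0.43, -0.31, 0.30 and 0.39 for pools 1 to 4 at 24 hpf, and -0.16 to 0.05 at 48 hpf. Between the times it was 0.36, 0.04, 0.17 and 0.40 in mutants and -0.24 to 0.11 in wild type. With the replicate block 2 genes were higher at 24 hpf and 2 for the difference. The scalings moved the median of all genes by at most 0.04 (log2) in size. Levels near the foreign median limit inka1a in mutants and pmelb at 24 hpf. Those of pmelb at 48 hpf and of the dimmer gch2 probe set lay within the range of the foreign sequences, which limits them too. Within that range (2.77 to 7.22) also lay foxd3 in mutants at 48 hpf (6.79 to 7.05) and the other inka1a probe set in wild type (6.18 to 7.20). So did some pools of sox10 and sox9b. Many listed genes lay there as well, among them mitfa (group means 5.98 to 6.33) and rab32a (6.06 to 6.76). The causes were not tested.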
